A study of Mus musculus with 12 samples.

Results

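The genes of the mouse major histocompatibility complex (MHC), named H2, were examined together with the beta-2-microglobulin gene B2m in read counts of the medial prefrontal cortex (PFC). Members were every row of the count table whose GRCm38 symbol starts with H2-, and B2m. This gave 46 members of 41388 rows, 45 H2 genes on chromosome 17 and B2m on chromosome 2. Of these, 24 had 10 or more counts in at least 4 of the 12 libraries and are described here, and 22 were below that minimum and are listed as low.

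All 12 libraries came from hand-dissected tissue of male Swiss Webster mice, an outbred stock, aged 10 weeks. Conventionally raised mice (CON) gave 4 libraries, germ-free mice kept without microbes in isolators (GF) gave 4, and GF mice colonized from postnatal day 21, after weaning (exGF), gave 4. Each library was made from polyA RNA pooled from 2 to 3 animals, and pools are thus what varied within a group. The exGF columns of the count table are named GFR1 to GFR4, and they were taken as exGF because the names of all other columns match CON or GF. Counts on genes ran from 22757169 to 29134760 in CON, from 13280926 to 23465074 in GF and from 22702599 to 28615407 in exGF. Markers of cortical neurons summed to 4643 to 6260 counts per 1000000 (CPM, with library sizes scaled by TMM) over all libraries.

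MHC molecules hold peptides at the cell surface for T cells to read. Class I molecules pair a heavy chain (H2-K1, H2-D1 and the nonclassical Q, T and M genes) with B2m and show peptides from inside the cell, whereas class II molecules pair an alpha with a beta chain (H2-Aa with H2-Ab1, and H2-Eb1 with an E alpha chain) and show peptides taken up from outside. In the brain, class I transcripts are found in many cell types, including neurons and endothelium, while class II transcripts come mainly from macrophages at the borders, dendritic cells and activated microglia. Class I transcription uses an enhancer A kappaB site and an interferon response element, and class II transcription uses the X and Y boxes, the Y box holding a CCAAT sequence.

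The 250 bases before the RefSeq start of 5 members are shown first, because the results turn on these genes: H2-Eb1 and H2-Aa carried 2 of the lower class II values in GF, H2-T23 was lower in exGF, H2-D1 and H2-T23 moved in opposite directions in a pair of CON libraries, and B2m is the chain that all class I molecules share. Sequences are RefSeq's on GRCm38.p6, written 5′ to 3′ on the strand of the gene. H2-Eb1 is at chr17:34305617-34305866 (plus strand), H2-Aa at chr17:34287824-34288073 (minus strand), H2-D1 at chr17:35262844-35263093 (plus strand), H2-T23 at chr17:36032702-36032951 (minus strand) and B2m at chr2:122147437-122147686 (plus strand). Capitals mark CCAAT, the interferon response element core AAANNGAAA and the enhancer A core GGGATTCCC, each searched on both strands.
H2-Eb1: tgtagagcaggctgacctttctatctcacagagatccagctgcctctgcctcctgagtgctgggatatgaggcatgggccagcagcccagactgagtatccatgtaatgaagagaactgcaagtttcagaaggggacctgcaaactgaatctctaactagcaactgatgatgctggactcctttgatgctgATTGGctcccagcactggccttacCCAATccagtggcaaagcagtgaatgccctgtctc
H2-Aa: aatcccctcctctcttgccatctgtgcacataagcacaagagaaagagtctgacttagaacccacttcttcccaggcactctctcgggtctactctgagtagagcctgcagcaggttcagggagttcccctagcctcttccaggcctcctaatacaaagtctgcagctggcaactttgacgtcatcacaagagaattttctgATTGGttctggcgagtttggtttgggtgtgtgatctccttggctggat
H2-D1: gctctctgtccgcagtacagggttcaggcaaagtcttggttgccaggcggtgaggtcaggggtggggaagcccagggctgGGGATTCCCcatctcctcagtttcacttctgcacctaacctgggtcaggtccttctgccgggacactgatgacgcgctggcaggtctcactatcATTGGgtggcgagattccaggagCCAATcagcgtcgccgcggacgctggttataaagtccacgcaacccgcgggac
H2-T23: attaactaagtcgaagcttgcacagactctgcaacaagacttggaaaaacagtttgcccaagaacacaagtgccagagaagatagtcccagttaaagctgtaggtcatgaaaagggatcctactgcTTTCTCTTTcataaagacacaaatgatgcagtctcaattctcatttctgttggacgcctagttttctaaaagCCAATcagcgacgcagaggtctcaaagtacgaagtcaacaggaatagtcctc
B2m: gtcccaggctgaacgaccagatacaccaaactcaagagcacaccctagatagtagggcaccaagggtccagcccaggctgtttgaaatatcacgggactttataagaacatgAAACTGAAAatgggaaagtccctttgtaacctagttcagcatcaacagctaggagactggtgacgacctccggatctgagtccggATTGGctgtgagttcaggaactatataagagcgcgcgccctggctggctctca

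A CCAAT on either strand stood at position -48 in H2-Aa, at -59 and -35 in H2-Eb1, at -76 and -53 in H2-D1, at -52 in H2-T23 and at -53 in B2m, counted back from the start. The interferon core was found at -124 in H2-T23 and at -138 in B2m, and the enhancer A core at -170 in H2-D1. The marked motifs do not overlap in these 5 windows. Of the 24 described members, 18 had a promoter entry. A CCAAT was present in 16 of these, an interferon core in 4 and an enhancer A core in 3. Among all 32851 promoters of the table the same windows held a CCAAT in 33.8%, the interferon core in 9.37% and the enhancer A core in 0.301%. These matches are a description of the letters only, and only exact matches were marked. The H2-D1 window holds tttcacttc, which differs from TTTCNNTTT, the interferon core's other strand, in its last base and was not marked. The interferon match in H2-DMa lies in a run of T. A window without a mark can thus still hold a variant of an element.

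Levels are given first, per length of exon (FPKM, fragments scaled by exon length and library size). B2m was highest at 74.2 ± 8.86 FPKM (mean ± SD over the 12 libraries) and H2-D1 second at 22.4 ± 6.70, and their libraries did not overlap. H2-DMa, the alpha chain of the class II peptide exchange molecule, followed at 5.01 ± 0.671 FPKM and the classical class I gene H2-K1 at 4.48 ± 0.883, with overlapping libraries. H2-T10, H2-T22, H2-M3, H2-T23, H2-Q4 and H2-T24 lay close together with means from 1.66 down to 1.25 FPKM and ranges that overlapped. The class II chains were low, with H2-Ab1 at 0.718 ± 0.222, H2-Aa at 0.636 ± 0.219 and H2-Eb1 at 0.515 ± 0.313 FPKM. H2-Q1 was lowest at 0.109 ± 0.131.

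**Figure D1:**
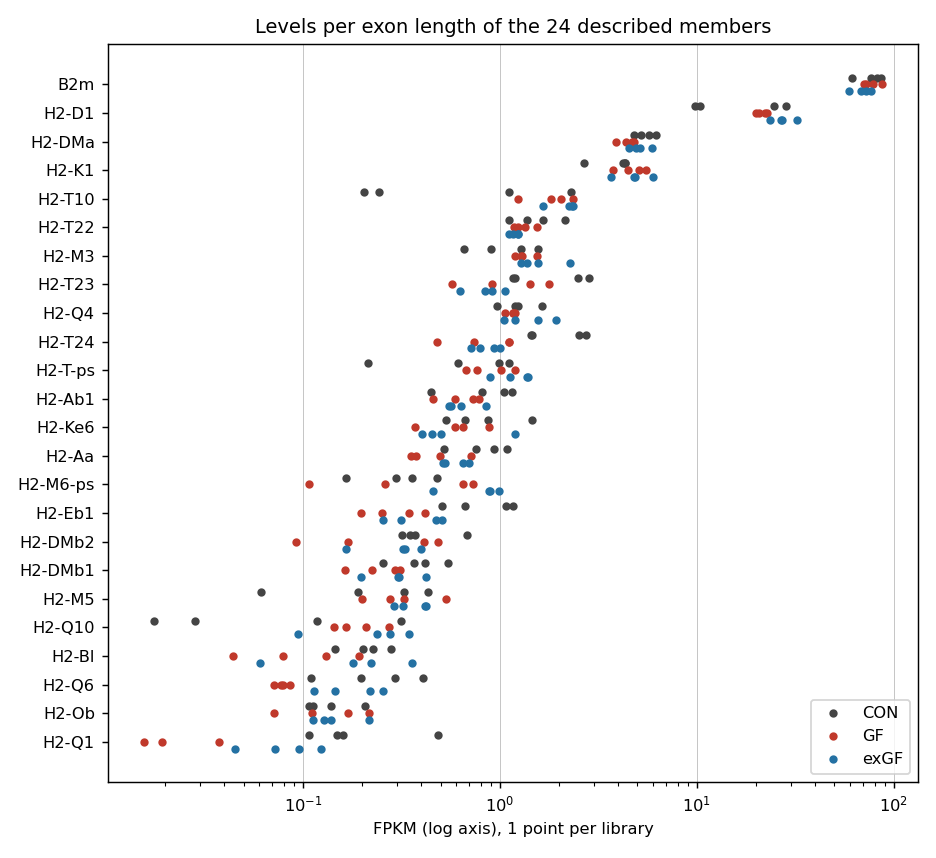
FPKM (log axis) of the 24 described members, 1 point per library, CON in black, GF in red and exGF in blue, ordered by the mean of the 12 libraries; the GF library at 0 for H2-Q1 is not drawn. B2m and H2-D1 lie above all other members in every library, while the class II chains lie between 0.198 and 1.16 FPKM.

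Several of these values cannot be given to 1 gene alone. Of the 31-base words in the transcripts of H2-T22, 67.4% also occurred in another gene, most in H2-T10, whose own share was 64.2%. Shares were 53.0% for H2-Q4, 51.8% for H2-Q6, 30.3% for H2-Q10, 26.9% for H2-D1 and 25.8% for H2-T23. They were 24.1% for H2-Q1, 22.8% for H2-K1 and 6.61% for H2-T24. This was against 1.06% for H2-Eb1, 0.911% for H2-Aa, 0.267% for H2-Ab1 and 0 for B2m. Only uniquely aligned pairs were counted, so counts of the members with high shares are uncertain. Pairs were also counted without strand. Genes on the opposite strand cover 27.1% of the exons of H2-T10, 29.4% of H2-T22, 19.1% of H2-Q4 and 10.4% of H2-DMa. H2-Ke6, a hydroxysteroid dehydrogenase gene that is no MHC molecule, shares 86.4% of its exons with Gm20427 on the same strand.

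A pair of CON libraries, CON1 and CON4, stood apart from the other 10 in class I genes. H2-D1, a classical class I heavy chain, was at 26.7 CPM in CON1 and 25.2 in CON4, against 73.1 in CON2, 63.6 in CON3 and 51.4 to 83.4 over all other libraries. The polymorphic pseudogene H2-T10, a relative of the gamma delta T cell ligand H2-T22, was at 0.697 and 0.838 CPM in these libraries and between 3.80 and 8.04 in the others. H2-Q10, known as a secreted class I molecule of the liver, was at 0.123 and 0.0762 CPM against 0.409 to 1.51. H2-T24, a nonclassical class I gene, went the other way, with 5.99 and 5.49 CPM against 1.05 to 3.16. H2-T23 (Qa-1, which shows signal peptides of other class I molecules to natural killer cells) was at 8.25 and 7.16 CPM in CON1 and CON4 and between 1.66 and 5.13 elsewhere.

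A rule written after these values had been seen asked for genes in which both libraries lay 1.5-fold or more beyond each of the other 10. It was met by 20 of 16032 genes (0.125%), 13 lower and 7 higher, and by 4 of the 22 members among them: H2-D1, H2-T10 and H2-Q10 were lower and H2-T24 higher. The count is a description, since the libraries were picked on these genes. Another gene of the interval, Gm6034, a neighbour of H2-T22 at 36042961 to 36058645 on chromosome 17, was at 0.123 and 0.0381 CPM in CON1 and CON4 and at 1.28 to 3.07 in the others. B2m, with 74.4 CPM in CON1 and 53.0 in CON4, and H2-K1, with 12.8 and 7.89, did not separate the pair. The group mean of CON in these class I genes is therefore a mean over 2 unlike pairs of pools, and the members' differences from CON are followed below by their values without CON1 and CON4. The labels give no reason for the difference.

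**Figure D2:**
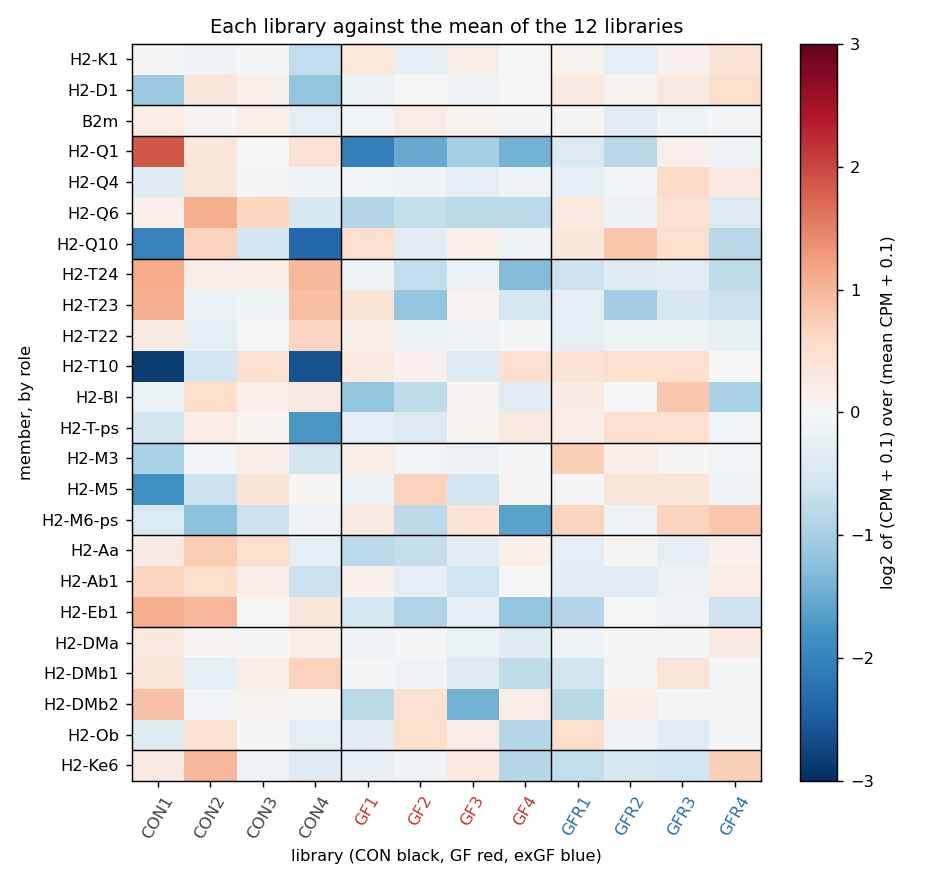
log2 of each library's CPM + 0.1 over the 12-library mean + 0.1 for the 24 described members, grouped by role with horizontal lines and by group with vertical lines; red is above and blue below the mean. H2-D1, H2-Q10 and H2-T10 are at their 2 lowest values in CON1 and CON4, and H2-T24 and H2-T23 at their 2 highest.

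The first comparison asked whether members differed between CON mice and mice without microbes. By the paper's methods, GF and CON mice descended from GF and CON breeding pairs, and exGF mice came from the GF isolators. Microbes and breeding line therefore cannot be told apart in either comparison with CON. GF mice were housed in isolators, and CON and exGF mice in the standard animal unit. Microbes and housing therefore cannot be told apart between GF and CON, nor between GF and exGF. None of the 20 members tested between CON and GF passed edgeR's quasi-likelihood test at an adjusted p under 0.1, where 0.251% of 15542 genes did. DESeq2 on the same libraries called 3 of the 23 members to which it gave an adjusted p, where it called 1.19% of 16355 genes. At an unadjusted p under 0.05, 4 members were lower in GF (H2-Eb1, H2-T24, H2-Aa and H2-DMa) and 0 were higher, against backgrounds of 3.94% lower and 4.75% higher. The member median was -0.19 (log2 GF minus CON) and that of all genes 0.01. In 3 of the 20 (H2-DMa, H2-Eb1 and H2-T24) all GF libraries lay below all CON libraries, against 2.55% of all tested genes. When CON1 and CON4 were left out, 0 of 22 tested members were called, where 31 higher and 29 lower of 15899 genes were. At an unadjusted p under 0.05 by edgeR, 5 members were lower and 0 higher, beside 574 lower and 625 higher genes. H2-Q6, 1 of the 5, passed the filter there through CON2 and CON3, in which it is high. The member median was -0.21 and that of all genes 0.01.

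In exGF relative to CON, 0 of 22 tested members were called, where 0.0696% of 15813 genes were. DESeq2 called 2 of 30 members, where it called 0.278% of 18735 genes. By unadjusted p under 0.05, 4 were lower (H2-T24, H2-T23, H2-Eb1 and H2-T22), beside 2.87% of genes, and 1 was higher (H2-M6-ps), beside 2.46%. H2-M6-ps reached the level of the filter on low counts in all 4 exGF libraries and in 1 CON library, so that the filter favoured its direction. The groups did not overlap for H2-T24 and H2-T23, both lower, against 1.52% of genes. The median over members was -0.13, and -0.01 over all genes. With CON1 and CON4 left out, 0 of 23 were called, where 3 higher and 10 lower of 16388 genes were. At an unadjusted p under 0.05 by edgeR, 3 members were lower and 1 higher, beside 547 lower and 441 higher genes. Medians were -0.08 over members and 0.01 over all genes. GF and exGF share the CON libraries in these comparisons, so they are not independent of each other.

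Directly between GF and exGF 0 of 21 members were called by edgeR, with 0% of 15569 genes called, and 0 of 25 by DESeq2, with 0.0847% of 16529 genes called. H2-D1 alone had an unadjusted p under 0.05, higher in exGF, beside 3.30% of genes, and 0 members were lower beside 3.35%. H2-D1 was also the only tested member with all exGF libraries above all GF libraries, against 1.77% of genes. The median of members was 0.21 (log2 exGF minus GF), with 18 above and 3 below 0. Over all genes it was -0.00, with 7579 above and 7990 below 0. Several members share words with each other, so their directions are not independent.

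**Figure D3:**
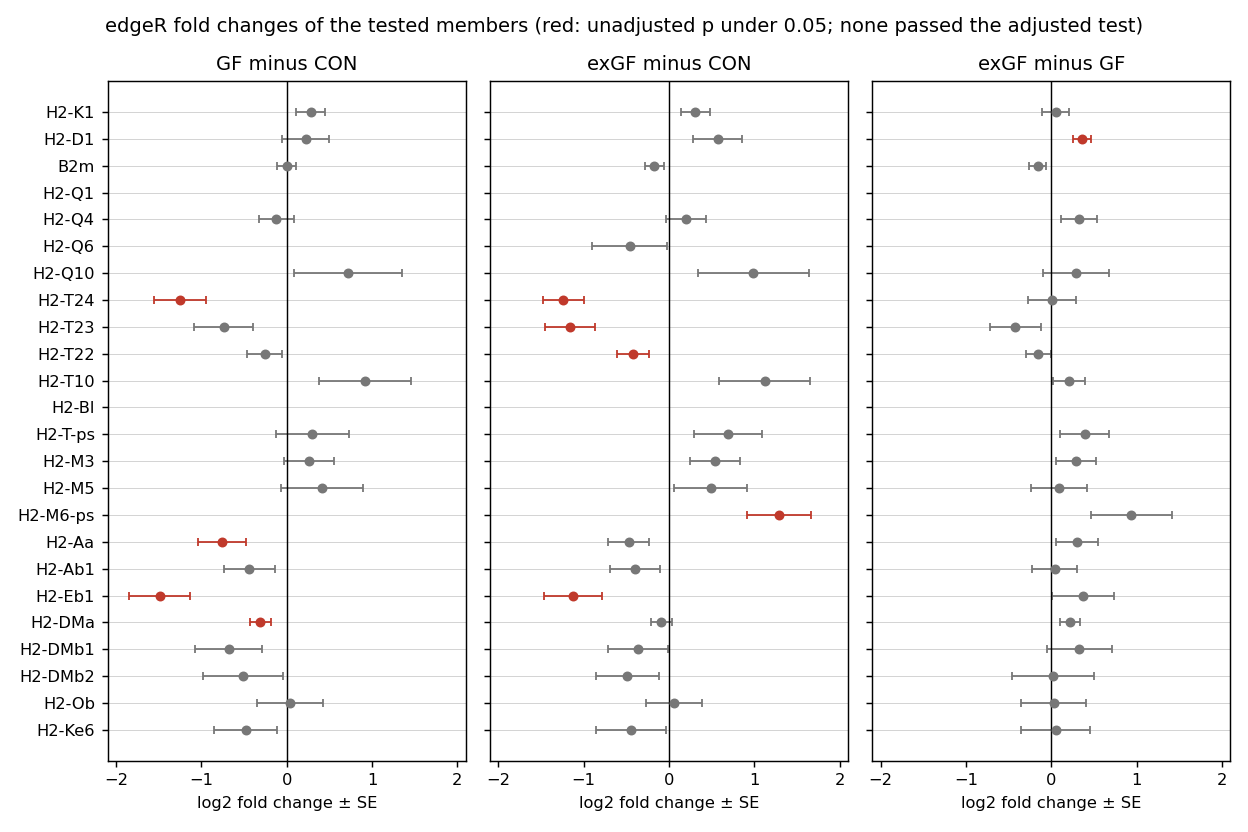
log2 fold changes with their SE from edgeR for the members tested in each comparison, ordered by role; points in red had an unadjusted p under 0.05, and members without a point did not pass the filter on low counts. The class II chains lie left of 0 in both comparisons with CON, and H2-T24 is at -1.25 and -1.24.

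Among the classical class I genes, H2-D1 had the widest spread in CON. Its 4 GF libraries were at 51.4, 57.1, 53.4 and 58.3 CPM and its exGF libraries at 69.0, 60.9, 69.8 and 83.4, beside the CON values above. The GF libraries were tightly grouped and lay wholly below exGF. The difference was 0.36 (SE 0.10, log2 exGF minus GF, unadjusted p = 0.00311, adjusted p = 0.736 by edgeR), and it does not rest on the CON libraries. Against CON, H2-D1 differed by 0.22 (SE 0.27) in GF and 0.57 (SE 0.29) in exGF. Without CON1 and CON4 the direction in GF turned, to -0.31 (SE 0.11, edgeR unadjusted p = 0.0137, adjusted p = 0.523), and the value in exGF was 0.05 (SE 0.14).

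H2-K1, the other classical heavy chain, was at 12.8, 12.3, 12.7 and 7.89 CPM in CON. In GF it was at 16.3, 11.0, 15.0 and 13.2 CPM, and in exGF at 14.2, 10.8, 14.3 and 17.6. All groups overlapped, with 0.28 (SE 0.17) in GF and 0.31 (SE 0.17) in exGF on the log2 scale, and 0.15 (SE 0.17) and 0.19 (SE 0.18) without CON1 and CON4. B2m, the light chain, was the steadiest member: 74.4, 66.2, 71.0 and 53.0 CPM in CON and 60.4, 74.6, 67.8 and 62.0 in GF, a log2 difference of 0.00 (SE 0.11). In exGF it was at 65.6, 50.7, 58.6 and 61.8 CPM, -0.17 (SE 0.11) from CON, with overlapping libraries. Without CON1 and CON4 B2m differed by -0.05 (SE 0.11) in GF and -0.21 (SE 0.13) in exGF.

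**Figure D4:**
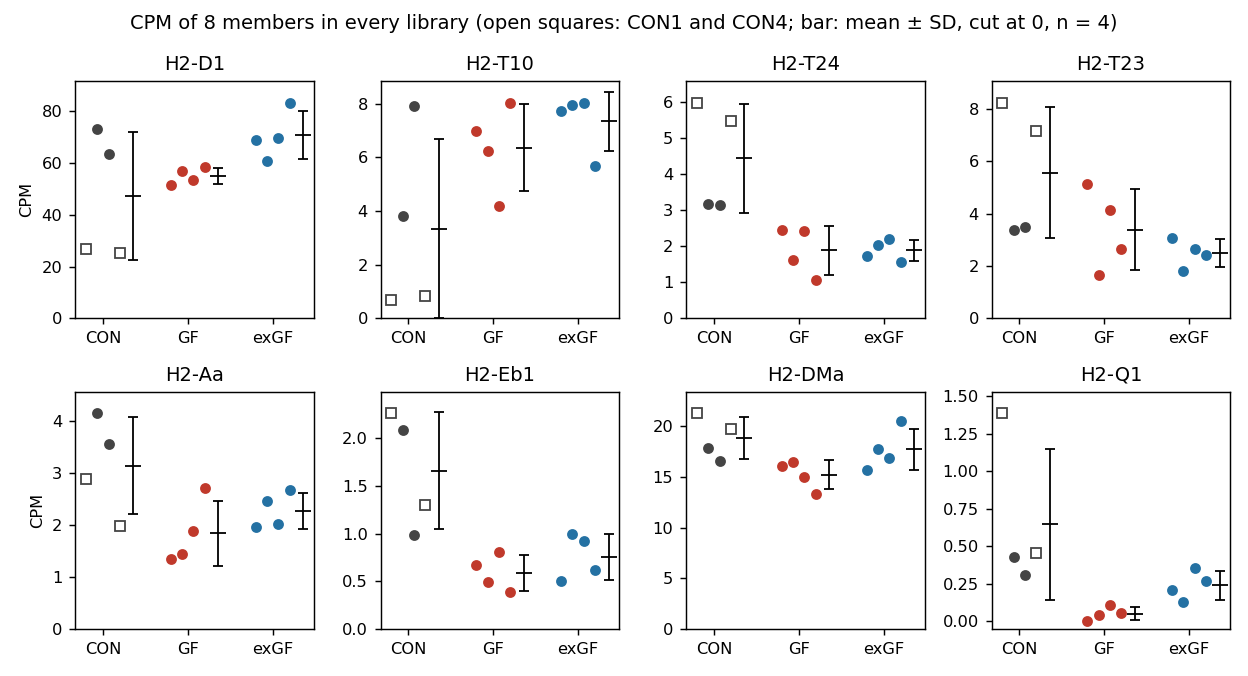
CPM of 8 members in every library by group; open squares are CON1 and CON4, and the bar beside each group is the mean ± SD of 4 libraries, cut at 0. The open squares lie below all other points for H2-D1 and H2-T10 and above them for H2-T24 and H2-T23.

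H2-T24 had the largest difference among the T-region genes. Its CON libraries were at 5.99, 3.16, 3.14 and 5.49 CPM. The GF libraries, at 2.45, 1.61, 2.42 and 1.05 CPM, and the exGF libraries, at 1.74, 2.03, 2.19 and 1.57, all lay below the lowest CON library. GF and exGF had the same mean of 1.88 CPM, against 4.44 ± 1.51 in CON (SD, n = 4). The log2 difference was -1.25 in GF (SE 0.30, edgeR adjusted p = 0.156, unadjusted 9.14e-04) and -1.24 in exGF (SE 0.24, adjusted p = 0.215, unadjusted 2.17e-04). DESeq2 gave adjusted p of 0.0153 and 0.00374, and edgeR without a filter on low counts 0.00671 and 0.0132. Over the alternatives the adjusted p ran from 0.00671 to 0.651 in GF and from 0.00374 to 0.746 in exGF. With CON1 and CON4 left out the differences were smaller, -0.75 (SE 0.33) and -0.74 (SE 0.25), with unadjusted p of 0.0416 and 0.0107 by edgeR. CON2 and CON3, at 3.16 and 3.14 CPM, still lay above all GF and exGF libraries.

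H2-T23 was at 8.25, 3.37, 3.48 and 7.16 CPM in CON. Its GF libraries were spread from 1.66 to 5.13 CPM (5.13, 1.66, 4.14 and 2.64) and overlapped CON. In exGF the values were 3.07, 1.81, 2.65 and 2.42 CPM, all below CON. The log2 difference was -1.16 in exGF (SE 0.29, edgeR adjusted p = 0.420, unadjusted 0.00149) and -0.74 in GF (SE 0.35, adjusted p = 0.587). In exGF its adjusted p was 0.0528 without a filter and 0.0529 by DESeq2, the range over alternatives being 0.0528 and above. Without CON1 and CON4 it was -0.46 (SE 0.25) in exGF and -0.04 (SE 0.36) in GF.

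H2-T22, a ligand of gamma delta T cells that needs no peptide, was at 5.66, 3.84, 4.71 and 7.35 CPM in CON. It was at 5.28, 4.03, 4.19 and 4.57 CPM in GF and at 3.81, 4.19, 4.20 and 3.98 in exGF, overlapping CON. The exGF difference of -0.42 (SE 0.19, edgeR unadjusted p = 0.0434, adjusted p = 0.915) was -0.08 (SE 0.20) without CON1 and CON4. Its near copy H2-T10 averaged 3.31 (CON), 6.36 (GF) and 7.34 CPM (exGF). The log2 differences of 0.92 (SE 0.54) and 1.12 (SE 0.53) were 0.11 (SE 0.30) and 0.31 (SE 0.26) without the pair, and 1.85 and 2.05 without CON3 alone. H2-T-ps and H2-Bl, annotated as a pseudogene and a polymorphic pseudogene, had 6 to 42 and 1 to 17 counts per library, and H2-Bl passed the filter in no comparison.

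Of the Q-region genes, H2-Q4 was at 2.50 to 5.02 CPM over all libraries, and all its groups overlapped. H2-Q10 differed by 0.72 (SE 0.63) in GF and 0.99 (SE 0.65) in exGF, by -0.13 (SE 0.49) and 0.16 (SE 0.53) without CON1 and CON4, and by 1.76 and 2.04 without CON2 alone. H2-Q1 and H2-Q6 were sparse and did not pass the filter between CON and GF. H2-Q1 had 34, 10, 9 and 12 counts in CON, 0, 1, 2 and 1 in GF, and 5, 3, 10 and 8 in exGF. Each GF library was thus at or under 3 counts, the limit that a count of 0 allows, and below every CON and exGF library. With 3 counts put in place of each GF count, the CPM mean was 3.78-fold higher in CON. It was 2.32-fold higher with CON1 left out, the library with 34 counts. The exGF mean was 1.41-fold higher than GF on the same basis. These folds take the CON and exGF means as exact, so they are not strict lower limits. H2-Q1 and H2-Q6 reached 10 counts in no GF library. They were therefore described here only through CON and exGF libraries, which favours low GF values. Without a filter, edgeR called H2-Q1 in GF at an adjusted p of 0.0141, and DESeq2 at 0.0668. H2-Q6 had 10, 20, 18 and 6 counts in CON, 2, 4, 3 and 3 in GF, and 11, 7, 15 and 7 in exGF. Its GF libraries also lay below all others, but it shares 51.8% of its words with other genes, 24.6% with H2-Q4. H2-Q1 shares 24.1% of its words, 15.9% with H2-Q2. With CON1 and CON4 left out H2-Q6 passed the filter and differed by -2.1 in GF (SE 0.55, edgeR unadjusted p = 0.00226, adjusted p = 0.265) and by -0.92 in exGF (SE 0.48), where the filter needs only the 2 remaining CON libraries, in which it is high.

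The M-region gene H2-M3, which shows formylated peptides of bacteria and mitochondria, was at 0.944 to 2.25 (CON), 1.72 to 2.23 (GF) and 1.84 to 3.27 CPM (exGF). Its groups overlapped, with log2 differences from CON of 0.26 (SE 0.29) and 0.54 (SE 0.29), and of -0.10 (SE 0.29) and 0.18 (SE 0.30) without CON1 and CON4. H2-M5 overlapped in all groups as well. The pseudogene H2-M6-ps was at 0.369, 0.171, 0.307 and 0.495 CPM in CON and at 0.912, 0.475, 0.919 and 1.02 in exGF, from 4 to 30 counts. The difference was 1.29 (SE 0.38, edgeR unadjusted p = 0.00461, adjusted p = 0.603), and the lowest exGF library lay below the highest CON library. It was 1.76 (SE 0.53, adjusted p = 0.687 by edgeR) without CON1 and CON4. In GF its values were 0.669, 0.269, 0.752 and 0.110 CPM, and it did not pass the filter against CON.

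All 3 class II chains had lower means in GF and in exGF than in CON. H2-Eb1, the E beta chain, was at 2.26, 2.09, 0.989 and 1.30 CPM in CON. It was at 0.669, 0.492, 0.806 and 0.386 CPM in GF, all below CON, and at 0.497, 0.993, 0.919 and 0.613 in exGF, where the highest library just overlapped the lowest of CON. Counts were 29 to 55 in CON and only 7 to 15 in GF. The log2 difference was -1.49 in GF (SE 0.36, edgeR adjusted p = 0.165, unadjusted 0.00113) and -1.13 in exGF (SE 0.34, adjusted p = 0.610, unadjusted 0.00554). In GF the adjusted p was 0.0420 without a filter on low counts and 0.0525 by DESeq2, and 0.0420 to 0.493 over all alternatives. Without CON1 and CON4 the values were -1.38 (SE 0.46) and -1.01 (SE 0.42).

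H2-Aa, the A alpha chain, was at 2.87, 4.14, 3.55 and 1.98 CPM in CON. In GF it was at 1.34, 1.43, 1.88 and 2.70 CPM, of which only the last lay above a CON library, CON4. In exGF it was at 1.95, 2.46, 2.01 and 2.66 CPM, 3 of them above CON4. The difference was -0.76 in GF (SE 0.28, edgeR unadjusted p = 0.0172, adjusted p = 0.430) and -0.47 in exGF (SE 0.24). It was larger without CON1 and CON4, -1.05 in GF (SE 0.30, unadjusted p = 0.00429, adjusted p = 0.363) and -0.75 in exGF (SE 0.23, unadjusted p = 0.00675, adjusted p = 0.714). H2-Ab1, its beta partner, was at 2.95, 2.69, 2.08 and 1.14 CPM in CON, 2.01, 1.52, 1.18 and 1.87 in GF, and 1.45, 1.43, 1.63 and 2.18 in exGF. GF overlapped CON through CON4 and exGF through CON3 and CON4, with -0.44 (SE 0.30) and -0.40 (SE 0.29), and -0.54 (SE 0.32) and -0.50 (SE 0.28) without CON1 and CON4. Between GF and exGF the chains differed by 0.04 to 0.37, with edgeR adjusted p of 0.984 for H2-Ab1, 0.815 for H2-Aa and 0.841 for H2-Eb1.

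H2-DMa, of the molecule that exchanges peptides on class II, was at 21.3, 17.9, 16.6 and 19.7 CPM in CON and at 16.1, 16.5, 15.0 and 13.3 in GF. The GF libraries lay below CON by a narrow gap, 16.5 against 16.6. In exGF it was at 15.7, 17.8, 16.9 and 20.5 CPM. The difference in GF was -0.31 (SE 0.12, edgeR unadjusted p = 0.0182, adjusted p = 0.438) and -0.18 (SE 0.14) without CON1 and CON4. H2-DMb1 and H2-DMb2, its beta chains, and H2-Ob, of the molecule that inhibits this exchange, had 3 to 29 counts per library, overlapped in all comparisons, and gave log2 differences from -0.68 to 0.04 in GF and from -0.49 to 0.06 in exGF.

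Summed over the 3 class II chains, the libraries were at 4.42 to 8.92 (CON), 3.45 to 4.96 (GF) and 3.90 to 5.45 CPM (exGF). Markers of cells that can carry class II, and of other cells, are given beside them. The 6 border macrophage markers (Mrc1, Cd163, Lyve1, Pf4, Ms4a7 and F13a1) all had counts and summed to 14.8 to 17.4 (CON), 9.97 to 13 (GF) and 11.3 to 16.3 CPM (exGF). The 10 microglia markers, all detected, summed to 388 to 456, 351 to 397 and 335 to 361 CPM, and the 8 meninges markers, all detected, to 179 to 251, 116 to 163 and 139 to 180 CPM. By edgeR 2 of the 8 meninges markers were called lower in GF and 0 of the border macrophage and microglia markers were called. At an unadjusted p under 0.05, 6 meninges, 1 border macrophage and 2 microglia markers were lower in GF, beside 3.94% of all genes. In exGF 0 markers of these lists were called. There 7 meninges, 1 border macrophage and 5 microglia markers were lower at an unadjusted p under 0.05, beside 2.87% of all genes. The 12 markers of dendritic, B and T cells overlapped between groups, with sums of 23.3 to 25.9, 22.4 to 28.6 and 22.6 to 25.7 CPM. Zbtb46 made up most of these sums, with means of 17.6, 17.6 and 15.8 CPM, so they say little about the other markers. Of these 5 reached 10 counts in 4 libraries, and Cd3e, of the T cell receptor complex, had at most 3 counts in every library. Flt3, a receptor of dendritic cell precursors, was at 4.39 ± 0.115 (CON), 5.29 ± 0.305 (GF) and 6.15 ± 0.581 CPM (exGF; SD, n = 4), with all GF and exGF libraries above CON and edgeR adjusted p of 0.628 and 0.578. The list as a whole did not follow Flt3. Of its 5 tested markers 3 were higher and 2 lower than CON in GF, and 2 higher and 3 lower in exGF. The median log2 differences were 0.08 and -0.16. The 6 markers of cortical neurons summed to 4643 to 5242, 5344 to 6260 and 4967 to 6043 CPM, so that all GF libraries lay above CON. All 6 neuron markers had positive log2 differences in GF, from 0.04 to 0.35, and 0 were called. At an unadjusted p under 0.05 by edgeR 2 were higher, beside 4.75% of all genes. The 24 interferon-induced genes summed to 119 to 141 (CON), 115 to 132 (GF) and 127 to 147 CPM (exGF). Of these genes Ifit3 was called lower in GF (-3.52, SE 0.45, edgeR adjusted p = 0.00630) and Ifit2 higher in exGF (1.27, SE 0.17, adjusted p = 0.0139). In GF 5 of 23 tested were lower and 1 higher at an unadjusted p under 0.05 by edgeR, beside 3.94% and 4.75% of all genes. In exGF 1 was lower and 1 higher, beside 2.87% and 2.46%. The 10 endothelial markers summed to 316 to 360, 317 to 359 and 343 to 387 CPM. The 7 choroid plexus markers, of which 3 reached 10 counts in 4 libraries, summed to 5.97 to 6.81, 3.28 to 14.7 and 2.69 to 7.05 CPM. The part of these cells in the class II values was not tested, and in bulk tissue fewer cells of a type and less RNA per cell cannot be told apart.

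**Figure D5:**
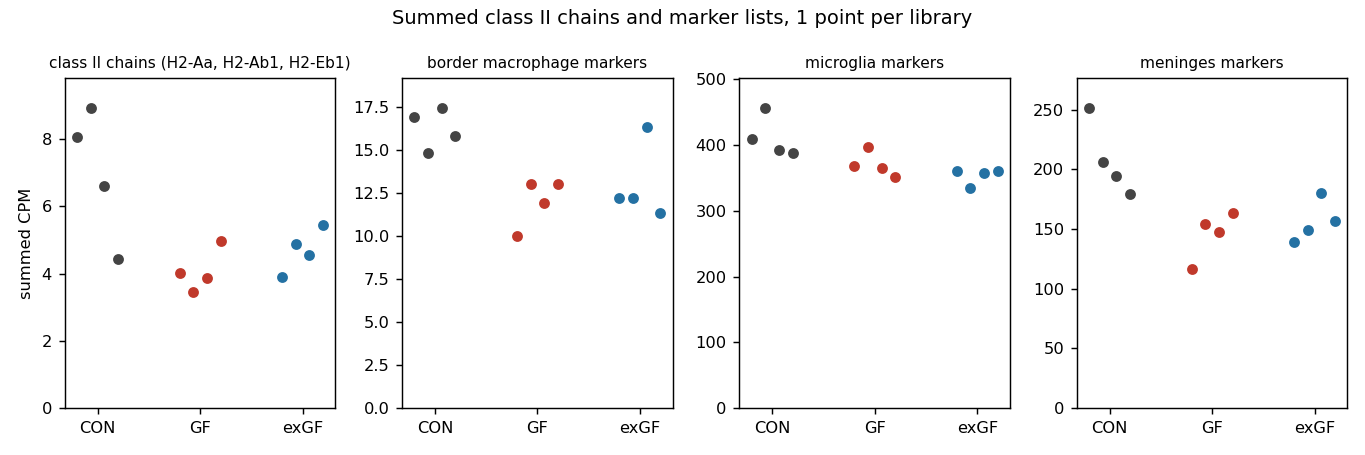
Summed CPM per library of the 3 class II chains and of the border macrophage, microglia and meninges marker lists, by group. The other lists are not drawn, among them dendritic, B and T cells and endothelium, whose sums overlapped between CON and GF. The summed class II chains are at 4.42 to 8.92 in CON and at most 4.96 in GF, and the border macrophage and meninges sums of GF lie below those of CON.

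Outside the H2 name, 25 genes of antigen processing were examined, 16 of class I and 9 of class II. By edgeR 0 were called in each comparison, as by DESeq2. In GF 3 were lower than in CON at an unadjusted p under 0.05 by edgeR, beside 3.94% of all genes, and 0 higher, beside 4.75%. Of the 25 differences 18 were below 0, with a median of -0.06. Mean levels of Cd74, the invariant chain that guides class II, were 6.91 ± 2.02 (CON), 4.71 ± 0.864 (GF) and 4.99 ± 0.362 CPM (exGF; SD, n = 4). Its log2 differences were -0.54 (SE 0.21, edgeR adjusted p = 0.471) and -0.47 (SE 0.20, adjusted p = 0.870). Tap2, one chain of the peptide transporter, was at 9.10 ± 2.0, 5.99 ± 1.03 and 6.89 ± 1.18 CPM, with -0.61 in GF (SE 0.18, edgeR adjusted p = 0.313) and -0.40 in exGF (SE 0.18, adjusted p = 0.924). Its partner Tap1 was at 2.36 ± 0.611, 2.25 ± 0.675 and 2.46 ± 0.251 CPM. Tapbpl, a peptide editor of class I, differed by -0.44 in GF (SE 0.14, adjusted p = 0.339).

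In exGF 4 of the 25 were lower than in CON at an unadjusted p under 0.05 by edgeR, beside 2.87% of all genes. These were Cd74, Tap2, Lgmn and Ctss. Ctss, the cathepsin that cleaves the invariant chain, was at 72.1 ± 3.73 (CON), 70.9 ± 6.55 (GF) and 56.0 ± 9.14 CPM (exGF). All its exGF libraries lay below CON, as for 1.52% of all tested genes, with -0.37 (SE 0.11, edgeR adjusted p = 0.610). It and the chaperone Calr were also lower in exGF than in GF, by -0.34 (SE 0.12) and -0.23 (SE 0.09), each with an adjusted p of 0.736. The activators of class I and class II transcription, Nlrc5 and Ciita, were low, with 0.518 ± 0.299 and 0.525 ± 0.204 CPM in CON, and 0.352 ± 0.169 and 0.411 ± 0.179 in GF. Their log2 differences in GF were -0.62 (SE 0.54) and -0.33 (SE 0.43). Tapbp, which bridges class I to the transporter, differed by -0.01 (SE 0.11) in GF, and the immunoproteasome subunit Psmb8 by -0.21 (SE 0.27).

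Of 254 other genes between 33996017 and 37274484 on chromosome 17, the interval from H2-K1 to H2-M3, the outermost members tested, 93 were tested between CON and GF. The myelin gene Mog was the 1 gene called, at 25.5 ± 3.44 CPM in CON and 45.0 ± 9.79 in GF (0.82, SE 0.14, edgeR adjusted p = 0.0342). DESeq2 called 4 of 102, and 7 were lower and 5 higher at an unadjusted p under 0.05 by edgeR, beside the 3.94% and 4.75% of all genes. In exGF 0 of 96 were called by edgeR and 0 of 123 by DESeq2, with 4 lower and 8 higher at an unadjusted p under 0.05, beside 2.87% and 2.46% of all genes. Between GF and exGF 0 of 93 were called by edgeR and 0 by DESeq2, with 3 lower and 7 higher, beside 3.35% and 3.30%. The median differences were -0.04 and -0.02 from CON in GF and exGF.

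Of the 22 low members, 9 had no count in any library (H2-M1, H2-M2, H2-M9, H2-M11, H2-M10.3, H2-M10.4, H2-M10.5, H2-M10.5-ps1 and H2-Q3). A further 7 had at most 3 counts in each: H2-Eb2, H2-M10.1, H2-M10.2, H2-M10.6, H2-Pa, H2-Pb and H2-Q5. The remaining 6 reached 10 counts in 1 or more libraries: H2-Oa, the alpha chain of the exchange inhibitor, with at most 15 counts, H2-Q2 with 12, H2-Q7 with 20, H2-K2 with 12, H2-T3 with 12 and H2-Ea-ps with 13. H2-Ea-ps, the E alpha gene that is disrupted in the reference strain, had 13, 3, 3 and 7 counts in CON, 0, 4, 3 and 1 in GF and 0 in each exGF library. Summed over a group this was 26 counts in CON, 8 in GF and 0 in exGF, too few for the filter, and no test was made.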

How the data were processed

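RNA of the PFC was sequenced from 4 CON, 4 GF and 4 exGF pools. The authors trimmed pairs with Trimmomatic 0.32, aligned them with STAR to GRCm38 and counted uniquely aligned pairs per Ensembl gene with HTSeq 0.6.0, ignoring strand. The deposited values are raw counts, not normalized. The columns named GFR were taken as exGF because no other samples remain. Rows of pairs given to no gene (4.57% to 7.31% outside genes, 13.0% to 19.2% aligned to several places) were left out.

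Members and lists were chosen with earlier results of these data known. Named members were those with an unadjusted p under 0.05 in any comparison, and H2-K1, H2-D1, H2-Aa, H2-Ab1, H2-Eb1 and B2m. H2-T10, H2-Q10, H2-Q1, H2-Q6, H2-Ea-ps and Gm6034 were added after their values had been seen. Each pair of groups was fitted by edgeR 4.0.16 (R 4.3.3: filterByExpr, TMM, quasi-likelihood test, Benjamini-Hochberg over all tested genes), and genes were called at an adjusted p under 0.1. The fits were tested on simulated data. CPM used TMM library sizes over 12 libraries, and FPKM the union of exons of a later GRCm38 annotation, which also gave symbols and coordinates. Alternatives were RLE size factors, other filters, DESeq2 1.42.0 with a prior on fold changes, a fit of all 12 libraries, a threshold of 0.05, each library left out, the replicate number as a block, library sizes from nuclear genes for FPKM, and, chosen after seeing the data, CON1 and CON4 left out together. Reads of an outbred stock were aligned to the reference strain, and alleles were not analysed here.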

Additional observations from a re-analysis of the deposited data

Results flagged for a closer look

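Within a group of 4 libraries, 5 of 72 group values of the described members had 1 library far from the other 3 by Dixon's gap test, which chance flags in about 1 in 20 groups. H2-K1 was at 7.89 CPM in CON4, below 12.3 to 12.8 in the other CON libraries. H2-DMb2 was at 1.19 CPM in CON1 (29 counts), above 0.555 to 0.648, and H2-Q1 at 1.39 CPM in CON1 (34 counts), above 0.307 to 0.457. In exGF, GFR4 was high for H2-Ke6, at 1.98 CPM against 0.663 to 0.821, and low for H2-T10, at 5.69 CPM against 7.71 to 8.02. The gap test does not mark values that 2 libraries of a group share, such as those of H2-D1 and H2-T10 in CON1 and CON4.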

How the results depend on the processing

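The class II chain H2-Eb1 had 7 to 15 counts in GF and H2-Q1 at most 2, and values at this depth carry a wide counting error. Members called rose from 0 without a filter on low counts to 3 in GF (H2-T24, H2-Eb1 and H2-Q1) and 2 in exGF (H2-T24 and H2-T23), and with DESeq2 to 3 and 2, of the same names. The count was 0 under all other settings, including the replicate block, in which 51 genes were called in GF against 39. The replicate numbers of CON and GF did not pair the libraries (correlations of same-numbered deviations -0.0795, -0.149, -0.0959 and 0.0903), and exGF columns carry no number. Antigen presentation genes called stayed at 0 under every setting. All genes called in GF numbered 221 without a filter, 195 with DESeq2, 60 without CON1 and CON4 and 27 to 60 with each library left out. In exGF they were 11, against 48 without a filter and 52 with DESeq2. Between GF and exGF they were 0, against 32, 14, 2 with a fit of all 12 libraries and 0 to 7 with libraries left out. Interval genes called in GF were 1, against 5 without a filter, 4 with DESeq2, 0 in the fit of 12 and 0 to 2 with libraries left out, and in exGF 0, against 1 without a filter and 0 to 1 with libraries left out.

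Of 881 refitted log2 differences of members 44 turned direction, and the cause was not tested. No member was called in the main tests, so these could only come from values that were not called. Without CON1 and CON4 the GF difference turned for H2-D1 (-0.31), H2-Q10 (-0.13), H2-T22 (0.07), H2-T-ps (-0.21), H2-M3 (-0.10), H2-Ob (-0.24) and B2m (-0.05), and the exGF difference for H2-DMa (0.04) and H2-Ob (-0.21). B2m in GF was 0.00 with RLE and DESeq2 and -0.02 without a filter, and H2-Ob was -0.03 with the replicate block. With each library left out, the GF difference was -0.09 to 0.06 for B2m, -0.26 to 0.27 for H2-Ob, -0.23 to 0.02 for H2-Q4 and 0.00 to 0.56 for H2-T-ps, and that of H2-Ob in exGF -0.15 to 0.29. Between GF and exGF it was -0.28 to 0.42 for H2-DMb2, -0.20 to 0.33 for H2-Ob, -0.07 to 0.15 for H2-K1, -0.18 to 0.17 for H2-T24, -0.12 to 0.15 for H2-Ab1, -0.10 to 0.44 for H2-M5 and -0.47 to 0.26 for H2-Ke6.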
